A study of Homo sapiens with 48 samples.

Results

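Matrix metalloproteinases (MMPs), zinc enzymes that cut extracellular matrix, and their tissue inhibitors (TIMPs) were followed through a time course of TGFβ and IL-1β in human skin fibroblasts. The 10 genes were taken by symbol from the 29744 genes of the deposited tables: the collagenases MMP1 and MMP13, the stromelysins MMP3 and MMP10, the gelatinase MMP2, the membrane-bound MMP14, the basement membrane protease MMP19, and TIMP1, TIMP2 and TIMP3. The cells came from the immortalized line CRL-4001 and carried the IL-11mNG reporter, in which mNeonGreen reports IL11. By the study's methods, reporter cells were sorted as single-cell clones before Cas9 or dCas9–VP64 was added. In the CRISPRko arm they carried Cas9 with a non-targeting guide (H47_Ctrl) or a guide against GLIS3 (H47_KO), and in the CRISPRa arm dCas9–VP64, an inactive Cas9 fused to a transcriptional activator, with a non-targeting or a GLIS3 guide (VP64_Ctrl and VP64_A). Guides were delivered by lentivirus and each population was selected and kept in bulk, so that cells of one H47_KO library could carry different edits. Both cytokines were present at 10 ng per ml each for 6, 12 or 24 h, or absent (0 h), and all cells were collected together, which left 3 libraries for each of 16 conditions. The study describes the replicates of its culture experiments in general as independent, while the labels do not say how these 3 were grown, and p-values measure the spread between these libraries.

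The descriptions and the titles of the CRISPRa samples name opposite groups as the control: the genotype and condition fields go with the titles. The cell line field also names Cas9 and a GLIS3 knockout for all 48 samples, controls and CRISPRa samples included. Groups are called here by their descriptions. GLIS3 measured 16.6 to 36.7 CPM (counts scaled to a common library size with TMM) over the 12 VP64_A libraries but 1.91 to 6.31 CPM over the 12 of VP64_Ctrl, which goes against the titles. Read by the titles, every CRISPRa difference below would turn its sign. It measured 0.144 to 1.63 CPM over the H47_KO libraries and 1.45 to 6.47 over those of H47_Ctrl.

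MMPs are made as inactive proenzymes that other proteases activate outside the cell or at its surface. Collagenases make the first cut in the collagen triple helix, stromelysins act on many matrix proteins and activate procollagenases, and gelatinases degrade denatured collagen. TIMPs bind the active site, and MMP14 together with TIMP2 activates pro-MMP2 at the membrane. In fibroblasts IL-1β is a classical inducer of MMP1 and MMP3, and AP-1 sites in the promoters of several MMP genes have long been studied as part of that induction, whereas TGFβ is known for raising collagens and TIMP1. Messenger RNA levels, as measured here, show neither proenzyme activation nor inhibitor binding.

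In the GENCODE annotation of GRCh38, MMP10 (chr11:102770502-102780628), MMP1 (chr11:102789401-102798160), MMP3 (chr11:102835801-102843609) and MMP13 (chr11:102942995-102955732) lie on the minus strand within a row of 9 MMP genes that spans 435.2 kb. MMP2 lies at chr16:55389700-55506691, MMP14 at chr14:22836560-22849041 and MMP19 at chr12:55835433-55842966. TIMP1 lies at chrX:47582408-47586789, TIMP2 at chr17:78852977-78925387 and TIMP3 at chr22:32801705-32863041. WTAPP1 overlaps MMP1, MMP3 and MMP10 on the opposite strand, SYN1 overlaps TIMP1 and SYN3 overlaps TIMP3 likewise, and CEP295NL overlaps TIMP2 on its own strand. These overlaps are of whole gene spans, introns included. The strand setting of the counting is not given in the sources used here, and sharing of reads with these overlapping genes was not measured. MMP3 and MMP10 share 125 stretches of 31 bases, 6.98% and 7.23% of those in each, and reads there could be split between them. The other members shared 0 such stretches with the family genes compared.

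The RefSeq promoter table (GRCh38.p14) held 4 of the 10 members. The 250 bases upstream of MMP10 and TIMP3 are shown because both genes rose with the cytokines in every group of cells and were lower in VP64_A at every time, while their upstream sequences differ in the AP-1 motif. Capitals mark a TGANTCA match. The MMP10 stretch is chr11:102780629-102780878 on the minus strand and the TIMP3 stretch is chr22:32801455-32801704 on the plus strand.
MMP10: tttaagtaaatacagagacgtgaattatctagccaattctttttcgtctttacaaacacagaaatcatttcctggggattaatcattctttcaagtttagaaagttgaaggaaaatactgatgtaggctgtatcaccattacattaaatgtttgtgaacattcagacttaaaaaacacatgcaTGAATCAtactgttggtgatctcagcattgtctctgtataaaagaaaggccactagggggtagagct
TIMP3: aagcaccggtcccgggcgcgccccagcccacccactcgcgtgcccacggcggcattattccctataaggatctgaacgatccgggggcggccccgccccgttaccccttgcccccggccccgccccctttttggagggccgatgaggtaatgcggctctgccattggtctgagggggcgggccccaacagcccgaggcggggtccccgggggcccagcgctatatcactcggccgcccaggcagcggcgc
TGANTCA, the AP-1 consensus, stood 67 to 61 bases before the start of MMP10, and 7.71% of the 35116 promoters in the table hold it on either strand of a window from 250 bases before to 50 after the start. In the same window TIMP1 held AGGAAG, an ETS core, from 87 to 82 bases before its start, which 33.6% of promoters hold. MMP14 and TIMP3 held neither of these, and none of the 4 held TGGGGGG (the G-rich core of GLIS sites, in 7.76% of promoters) or the NF-kB consensus (in 0.558%). A match or its absence in these windows is a description of letters and was not tied to binding.

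Library totals ranged from 2321990 to 10661004 estimated counts, and the 10 members took 0.0992 to 2.00% of a library. All 10 fibroblast markers were above 0 in all 48 libraries, with summed levels between 10182 and 61977 CPM. The 10 markers of other skin cells summed to between 17.1 and 30.7 CPM in H47_Ctrl, 29.04 and 54.3 in H47_KO, 33.6 and 88.1 in VP64_Ctrl and 56.3 and 114.4 in VP64_A, and EPCAM was at 0 in all 48. In bulk RNA fewer expressing cells and less RNA per cell cannot be told apart. In 3 libraries (VP64_Ctrl at 0 h, H47_KO at 0 h and H47_KO at 24 h, replicate 3 of each) the 50 most abundant genes took the smallest shares of counts, 23.1%, 30.7% and 31.4%. Results without them are given for part of the calls that this changed. Of the members, 9 passed the filter on low counts in both arms. MMP13 did not: it was above 0 in 17 of 48 libraries, with at most 9 counts in a library and 39 in all, in 0 of 12 libraries at 0 h and in 17 of 36 later ones.

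Between genes, levels were compared as TPM, transcript abundances on 1 total per library, which account for transcript length. MMP1 had the highest mean TPM of the 10 genes in 11 of 16 conditions, and TIMP1, the main secreted inhibitor, in the other 5. At 0 h the most abundant member was TIMP1 in H47_Ctrl (1373 ± 260.1 TPM, SD, n = 3), H47_KO (1231 ± 104) and VP64_A (501 ± 120.2), but MMP1 in VP64_Ctrl (1295 ± 236). TIMP1 was followed in H47_Ctrl by MMP1 at 307 ± 21.5 TPM and MMP2 at 245 ± 68.0, whose libraries overlapped, and then by MMP3 at 143 ± 11.4 and TIMP3 at 111 ± 28.5, which overlapped as well. TIMP2 (20.1 ± 3.47), MMP19 (7.73 ± 1.78) and MMP14 (6.18 ± 0.564) were lower, and MMP10 stood at 0.509 ± 0.454.

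At 12 h MMP1 reached 3415 ± 1130 TPM in H47_Ctrl, 3904 ± 588 in H47_KO, 10671 ± 186 in VP64_Ctrl and 3171 ± 310.3 in VP64_A. MMP1 and TIMP1 were the top pair in all 4 groups at 12 h except VP64_Ctrl, where MMP3 (2428 ± 106 TPM) came second, above TIMP1 (1371 ± 54.5). MMP1 and TIMP1 overlapped at 12 h in H47_Ctrl and at 6 and 24 h in H47_KO. After 0 h MMP10 amounted to between 0.181 and 1.41% of the TPM of MMP3 in the same library (median 0.725%, 36 libraries), so the other stromelysin stayed far below MMP3.

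**Figure D1:**
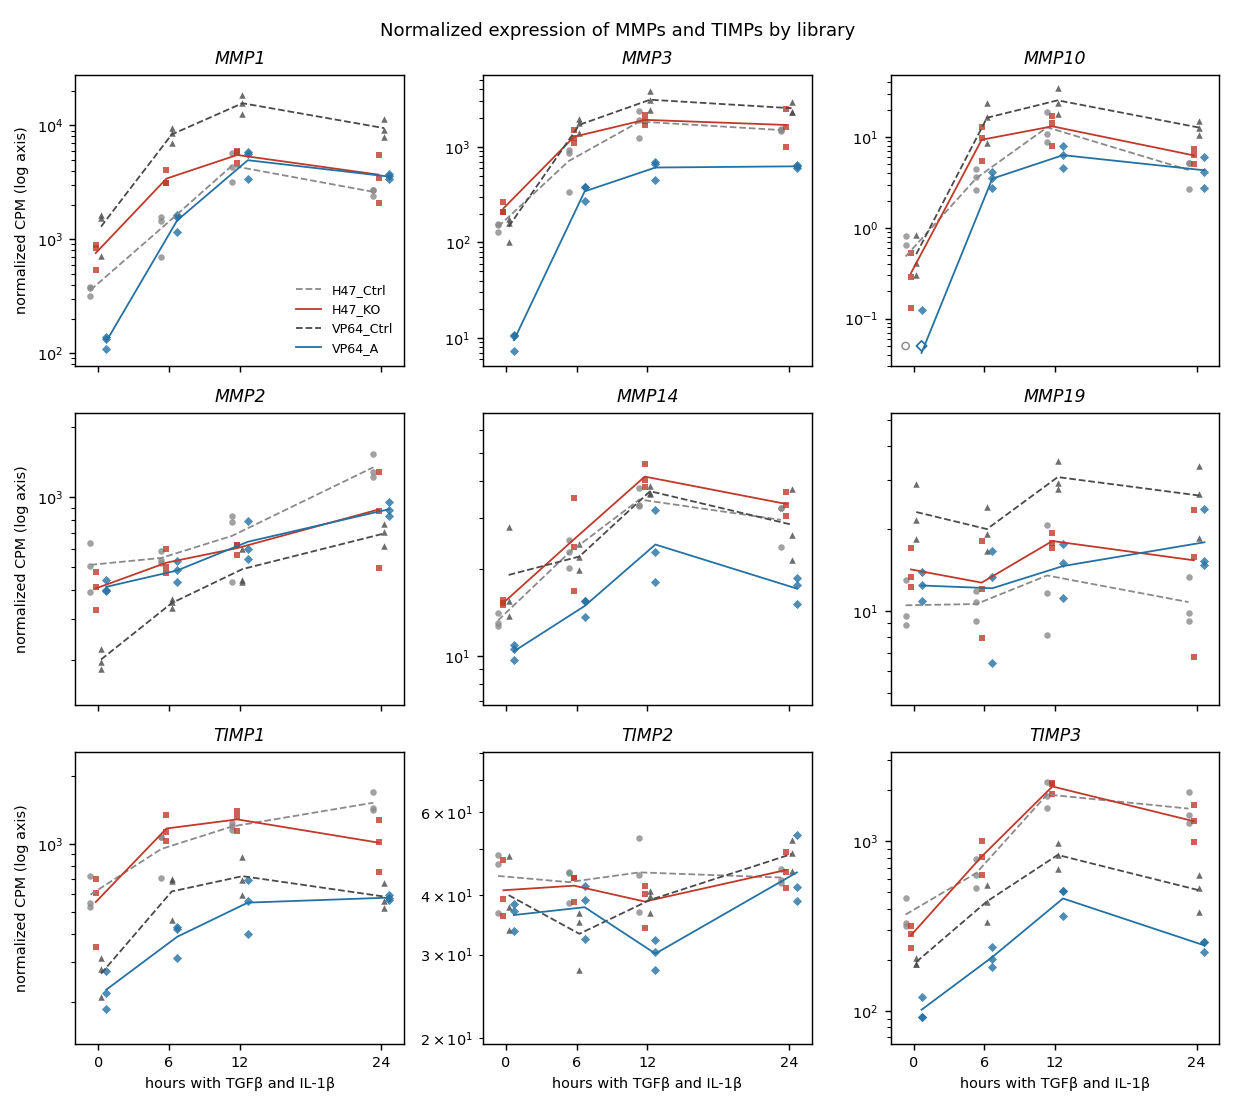
Normalized CPM (log axis, a separate scale for each gene) of the 9 tested members at 0, 6, 12 and 24 h of TGFβ and IL-1β in the 4 groups of cells; points are single libraries (3 per condition), lines join group means, and libraries at 0 are drawn as open symbols at 0.05. MMP1 and MMP3 in VP64_A start below every other group at 0 h, and MMP10 in VP64_A has 2 of 3 libraries at 0 there.

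The summed TPM of the 7 MMPs over that of the 3 TIMPs rose from 0.481 ± 0.0694 (SD, n = 3) at 0 h in H47_Ctrl to 1.77 ± 0.541 at 12 h, and was 1.09 ± 0.121 at 24 h. In H47_KO it went from 0.804 ± 0.141 to 1.91 ± 0.342 at 12 h and stood at 1.84 ± 0.419 at 24 h. Its H47_KO libraries lay above all control libraries at 0, 6 and 24 h and overlapped them at 12 h. In VP64_Ctrl it went from 1.93 ± 0.440 at 0 h to 8.45 ± 0.4003 at 12 h, and in VP64_A from 0.580 ± 0.0980 to 3.50 ± 0.364. Every VP64_A library lay below every VP64_Ctrl library of its time. With 3 libraries against 3 no exact test of such a ratio can go below a p of 0.1, and none was run. MMP1 alone made up between 9.23 and 72.3% of the members' TPM in a library.

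**Figure D2:**
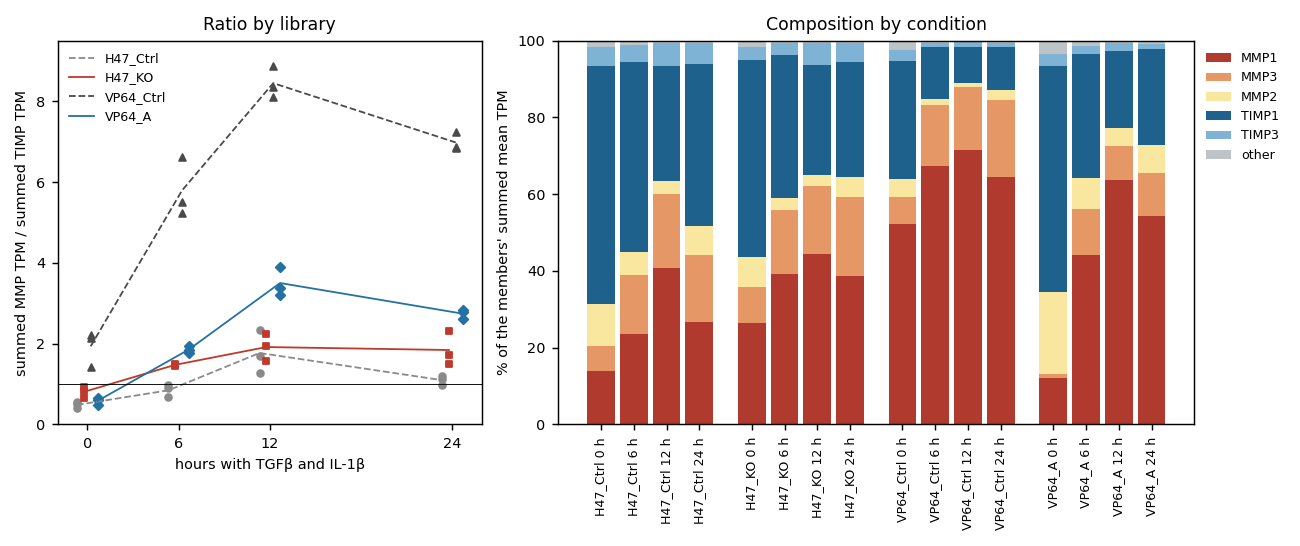
Left, summed TPM of the 7 MMPs over summed TPM of the 3 TIMPs (linear axis from 0, thin line at 1) against hours with TGFβ and IL-1β, with points for single libraries and lines joining group means; right, stacked bars of the share (%) of the members' summed mean TPM taken by MMP1, MMP3, MMP2, TIMP1, TIMP3 and the other members in each of the 16 conditions. VP64_Ctrl has the highest ratio at all 4 times, from a mean of 1.93 at 0 h to 8.45 at 12 h, and the largest MMP1 share.

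The cytokine response was examined within each group of cells. The collagenase MMP1 and both stromelysins rose at 6, 12 and 24 h in all 4 groups, TIMP3, TIMP1 and MMP14 rose in most, MMP2 rose at 24 h in all 4 groups and earlier in the CRISPRa arm, and MMP19 and TIMP2 passed the test in no comparison with 0 h. Calls rest on edgeR's quasi-likelihood test, with Benjamini-Hochberg adjusted values under 0.05. In H47_Ctrl 5, 6 and 7 of the 9 tested members were called at 6, 12 and 24 h, where 15.9%, 19.6% and 10.3% of all genes were called in either direction. In H47_KO the counts were 6, 6 and 7, against 23.9%, 27.4% and 15.8% of all genes. In VP64_Ctrl they were 6, 7 and 7, against 28.8%, 26.8% and 16%, and in VP64_A 5, 7 and 7, against 17.4%, 19.7% and 13.6%. All of these calls were increases. The 3 comparisons of a group share its 0 h libraries.

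MMP1, which cuts fibrillar collagen, measured 317, 383 and 374 CPM in the 3 libraries of H47_Ctrl at 0 h and 5743, 3205 and 4320 at 12 h. The libraries of these 2 times were far apart, and the 12 h libraries differed among themselves by more than those at 0 h. Its log2 fold change against 0 h was 1.80 (SE 0.32) at 6 h, 3.63 (SE 0.35) at 12 h and 2.87 (SE 0.34) at 24 h. In H47_KO the changes were 2.17, 2.86 and 2.29, and in VP64_Ctrl 2.69, 3.60 and 2.87. VP64_A had the steepest of the 4, 3.52 (SE 0.31), 5.28 (SE 0.34) and 4.80 (SE 0.33), from a lower start. Adjusted p was at most 8.98e-05 in all 12 comparisons.

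MMP3 (stromelysin 1) rose by 2.29, 3.66 and 3.36 on the log2 scale at 6, 12 and 24 h in H47_Ctrl and by 2.49, 3.08 and 2.90 in H47_KO. In VP64_Ctrl it rose by 3.54, 4.41 and 4.12. In VP64_A the libraries measured 10.6, 10.6 and 7.25 CPM at 0 h and 636, 598 and 648 at 24 h. The times did not overlap, and the change was 5.16 (SE 0.28), 5.99 (SE 0.29) and 6.03 (SE 0.29), which was still at its height at 24 h.

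MMP10 (stromelysin 2) was near the detection limit at 0 h. Its pooled counts there were 10 in H47_Ctrl, 6 in H47_KO, 17 in VP64_Ctrl and 1 in VP64_A, and at 12 h they were 108, 207, 340 and 86. Scaled by library size, the 12 h level was 21.9 times that at 0 h in H47_Ctrl (95% counting interval 11.5 to 47.01), 42.3 times in H47_KO (19.1 to 117) and 43.8 times in VP64_Ctrl (26.97 to 76.1). For VP64_A the 1 count leaves an interval from 25.5 to 5827. These intervals cover counting error only. The test called MMP10 higher in all 12 comparisons with 0 h, with adjusted p at most 8.19e-04.

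MMP2, which degrades gelatin and type IV collagen, rose more slowly than MMP1. In H47_Ctrl it was called at 24 h only (log2 1.39, SE 0.26, adjusted p = 3.0e-04), from 0 h levels of 635, 507 and 393 CPM. In VP64_Ctrl it was called at all 3 times (0.81, 1.29 and 1.80) and in VP64_A at 12 and 24 h (0.64 and 1.11), at 12 h not without VP64_A 12 h replicate 3 (0.47 to 0.74). From 6 to 24 h MMP2 rose further in H47_Ctrl (1.30), H47_KO (0.76), VP64_Ctrl (0.99) and VP64_A (0.88). It was the only member called in all 4 groups in that comparison. The call in H47_KO was lost when any of 5 of its 6 libraries was left out (0.39 to 1.02), all but H47_KO 24 h replicate 3, and in a fit of only the libraries compared. In that fit the 24 h response of MMP2 in H47_KO was lost too.

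Between 6 and 24 h MMP1 and MMP3 rose further in H47_Ctrl (1.07, SE 0.32 and 1.08, SE 0.30) and in VP64_A (1.28, SE 0.29 and 0.87, SE 0.23). In H47_KO the values were 0.11 and 0.41 and in VP64_Ctrl 0.18 and 0.58, with adjusted p of at least 0.0776. TIMP3 rose in this interval in H47_Ctrl (1.26) and H47_KO (0.69), and TIMP2 in VP64_Ctrl (0.53). Counts of calls were 4, 2, 2 and 3 of 9 in H47_Ctrl, H47_KO, VP64_Ctrl and VP64_A, against 14.6%, 24.2%, 18.4% and 12.5% of all genes. Leaving out 1 library ended the call for MMP1 in H47_Ctrl in 3 cases (6 h replicate 1, 24 h replicate 1 or 2, with values from 0.74 to 1.28), for MMP3 in H47_Ctrl without 6 h replicate 1 (0.70 to 1.33), and for MMP3 in VP64_A without 6 h replicate 1 (0.72 to 0.95). It also ended the calls for TIMP3 in H47_KO (6 h replicates 1 and 3, 24 h replicates 1 and 2, from 0.51 to 0.84), which DESeq2's size factors and the fit of only the libraries compared ended as well, and for TIMP2 (6 h replicate 3, 24 h replicates 2 and 3, from 0.44 to 0.59).

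TIMP3, which binds matrix, had the highest fitted change of the 3 inhibitors at 12 h in all 4 groups, while TIMP1 had the higher value at 6 h in VP64_Ctrl and at 24 h in VP64_A. In H47_Ctrl it measured 460, 331 and 317 CPM at 0 h and 1574, 2244 and 1846 at 12 h. No 12 h library came near the 0 h libraries. The log2 change at 12 h was 2.35 (SE 0.25) in H47_Ctrl, 2.92 (SE 0.26) in H47_KO, 2.10 (SE 0.21) in VP64_Ctrl and 2.18 (SE 0.21) in VP64_A, and at 24 h it was 2.07, 2.24, 1.40 and 1.26. At 6 h it was 0.81, 1.55, 1.18 and 1.03, of which the first lost its call without H47_Ctrl 0 h replicate 2 or 3 or 6 h replicate 2 (0.65 to 1.00).

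TIMP1, the main secreted inhibitor, was called at 12 and 24 h in all 4 groups. At 24 h the log2 change was 1.35 in H47_Ctrl, 0.87 in H47_KO, 1.13 in VP64_Ctrl and 1.35 in VP64_A. At 6 h it was called in H47_KO (1.08), VP64_Ctrl (1.21) and VP64_A (0.78), while H47_Ctrl missed the threshold (adjusted p = 0.056). The call at 24 h in H47_KO was lost without H47_KO 0 h replicate 3 or 24 h replicate 1 (0.64 to 1.08) and in the fit of only the libraries compared, and that at 6 h in VP64_A without VP64_A 0 h replicate 3 or 6 h replicate 2 (0.66 to 0.93). TIMP2, which takes part in pro-MMP2 activation, stayed between 30.1 and 48.9 CPM in the means of all 16 conditions.

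MMP14, which activates pro-MMP2 at the cell surface, was called at 12 h in all 4 groups with log2 changes of 1.38 in H47_Ctrl, 1.45 in H47_KO, 0.98 in VP64_Ctrl and 1.24 in VP64_A. At 24 h the changes were 1.14, 1.12, 0.62 and 0.72, all called, and at 6 h MMP14 was called in H47_Ctrl (0.77) and H47_KO (0.74). These calls depended on the scale: with limma on log2(TPM + 1) they held in H47_Ctrl and H47_KO at 12 h and in H47_KO at 24 h, and not in the other 7. On that scale the median of all genes itself moved, by between −0.65 and 0.54 over the comparisons, and MMP2 and TIMP3 at 6 h in VP64_Ctrl and MMP2 at 12 h in VP64_A were not called either. They also depended on single libraries, in VP64_A at 24 h on all 6 (0.64 to 0.79), in VP64_Ctrl at 24 h on 0 h replicates 1 and 2 and 24 h replicates 1 and 3 (0.33 to 0.97; also lost with DESeq2 and in the fit of only the libraries compared), and in H47_KO at 6 h on 6 h replicate 3 (0.39 to 0.97). MMP19 ranged between 10.5 and 30.8 CPM over the condition means.

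**Figure D3:**
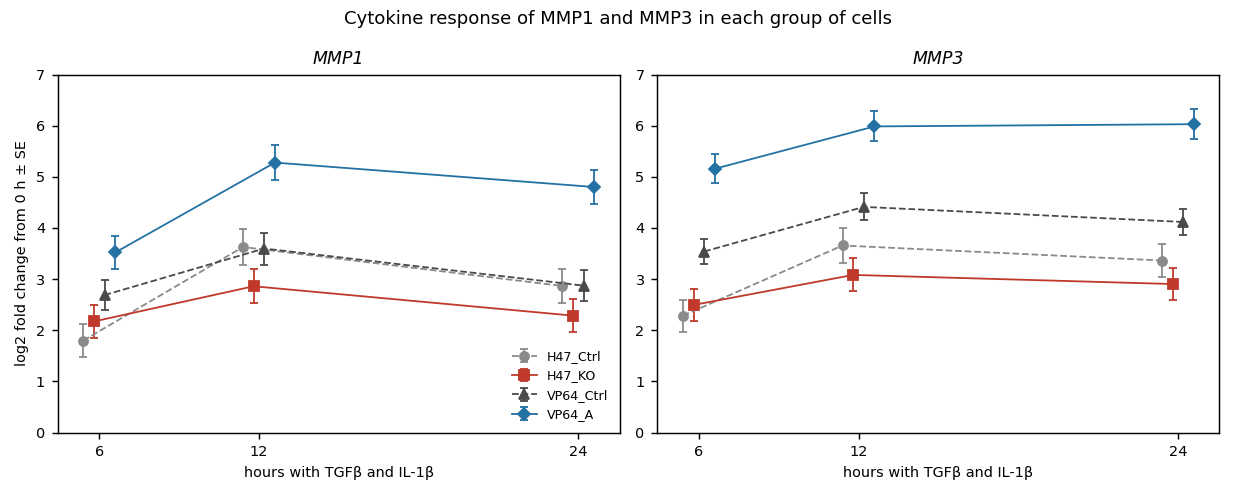
Log2 fold changes of MMP1 (left) and MMP3 (right) from 0 h after 6, 12 and 24 h with TGFβ and IL-1β in the 4 groups of cells; points are the fitted values, error bars are SE and lines join the times of a group. VP64_A has the largest fold change of both genes at all 3 times.

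VP64_A was then compared with VP64_Ctrl at each time. MMP1, MMP3, MMP10 and TIMP3 were lower in VP64_A at all 4 times, MMP2 was higher at 0 h, and MMP14 and MMP19 were lower at 0 h, MMP19 also at 12 h. At 0 h 7 of 9 members were called, 1 higher and 6 lower, where 9.41% of all genes were called. At 6, 12 and 24 h 4, 5 and 4 were called, all lower, against 3.76%, 4.31% and 4.13%. Averaged over the 4 times 8 of 9 were called, 1 higher and 7 lower, against 18.4% of all genes.

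MMP1 measured 134, 110 and 138 CPM in VP64_A at 0 h and 1535, 1636 and 706 in VP64_Ctrl. At 24 h the libraries measured 3566, 3360 and 3728 CPM in VP64_A and 11364, 9176 and 7859 in VP64_Ctrl. The groups did not overlap at either time, and VP64_Ctrl 0 h replicate 3, a library of flat composition, was the lowest of its group. The log2 difference was −3.34 (SE 0.31, adjusted p = 2.67e-09) at 0 h, −2.51 (SE 0.30) at 6 h, −1.66 (SE 0.29) at 12 h and −1.41 (SE 0.29, adjusted p = 0.00171) at 24 h.

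MMP3 measured 10.6, 10.6 and 7.25 CPM in VP64_A at 0 h and 160.4, 177 and 102 in VP64_Ctrl. It measured 669.7, 456 and 702 at 12 h against 3082, 2466 and 3821. VP64_A was lower in every library. The log2 difference was −3.93 (SE 0.27, adjusted p = 2.44e-12) at 0 h and −2.31 (SE 0.24), −2.36 (SE 0.24) and −2.02 (SE 0.24) at 6, 12 and 24 h. The calls for MMP1 and MMP3 held under all 8 alternatives and without each library.

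MMP10 had 0, 1 and 0 counts in the VP64_A libraries at 0 h and 10, 5 and 2 in those of VP64_Ctrl. Pooled and scaled, VP64_Ctrl was 14.2 times higher, with a 95% counting interval from 2.22 to 591. At 12 h the libraries measured 8.06, 4.599 and 6.33 CPM in VP64_A and 23.5, 17.9 and 34.95 in VP64_Ctrl. The fitted log2 difference was −2.14 (SE 0.38), −2.06 (SE 0.34) and −1.49 (SE 0.36) at 6, 12 and 24 h, all called. The call at 0 h (−3.23, SE 0.97, adjusted p = 0.0317), which rests on 18 counts, was lost without VP64_A replicate 1 or 3 or VP64_Ctrl replicate 1 (−4.74 to −2.61), in the fit of only the libraries compared and with limma on log2(TPM + 1), and that at 24 h without VP64_A replicate 1 or 2 or VP64_Ctrl replicate 1 (−1.85 to −1.29).

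TIMP3 measured 91.5, 92.2 and 120.4 CPM in VP64_A at 0 h and 189, 205 and 189 in VP64_Ctrl. The groups did not overlap at any of the 4 times. The log2 difference was −0.94 (SE 0.20, adjusted p = 0.00277), −1.09 (SE 0.21), −0.85 (SE 0.20) and −1.08 (SE 0.20) at 0, 6, 12 and 24 h. That at 12 h lost its call without VP64_A replicate 2 or VP64_Ctrl replicate 3 (−0.97 to −0.71) and in the fit of only the libraries compared. TIMP1 and TIMP2 passed the test at none of the 4 times. Averaged over them, TIMP1 gave a log2 difference of −0.33 (SE 0.11, adjusted p = 0.0326), and TIMP2 stood at −0.12. The call for TIMP1 was lost without any 1 of 10 of the 24 libraries (−0.38 to −0.28): VP64_A 0 h replicates 1 and 3, 6 h replicate 1, 12 h replicate 2 and 24 h replicate 1, and VP64_Ctrl 0 h replicate 2, 6 h replicates 2 and 3, 12 h replicate 3 and 24 h replicate 1.

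MMP2 went the other way from the other called members: at 0 h it measured 394, 439.7 and 401 CPM in VP64_A and 196, 222 and 183 in VP64_Ctrl. The VP64_A libraries were the higher ones without overlap at 0, 6 and 24 h, and overlapped those of VP64_Ctrl at 12 h (in TPM they overlapped at 24 h too). Averaged over the times its log2 difference was 0.56 (SE 0.09, adjusted p = 1.59e-05), and 0 h was the only single time called. In TPM the VP64_A mean of MMP2 was 1.57, 1.47, 1.25 and 1.03 times that of VP64_Ctrl at 0, 6, 12 and 24 h. MMP14 measured 10.6, 9.68 and 10.9 CPM in VP64_A at 0 h and 13.7, 15.5 and 27.8 in VP64_Ctrl, of which replicate 3 stood apart. Its difference of −0.85 (SE 0.23) was not called without that library (−1.04 to −0.50 over the libraries left out) or without VP64_A replicate 2, and the average over the 4 times was −0.69 (SE 0.12, adjusted p = 3.5e-05). MMP19 was lower at 0 h (−0.89, SE 0.25) and at 12 h (−1.05, SE 0.26). Its calls were lost without VP64_A replicate 1 or 2 or VP64_Ctrl replicate 3 at 0 h (−1.03 to −0.70) and without the same replicates at 12 h (−1.19 to −0.92). The average for MMP19 was −0.82 (SE 0.13, adjusted p = 1.58e-05).

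Without the 3 libraries of flat composition, which include VP64_Ctrl 0 h replicate 3, MMP14 and MMP19 were not called at 0 h. KRT14, a keratinocyte keratin, moved with the same groups: it lay between 16.7 and 80.2 CPM in VP64_A (median 61.2) and between 2.84 and 11.4 in VP64_Ctrl (median 6.68), while KRT5 had at most 1 count in a library. CD68, listed as a macrophage marker, had a median of 26.5 CPM in VP64_A and 49.0 in VP64_Ctrl and was above 0 in all 48 libraries. PTPRC, the leukocyte marker of the list, was at 0 in 37 of 48 libraries and reached at most 1.41 CPM. Of the 10 fibroblast markers 6 were higher and 3 lower in VP64_A on average, against 18.4% of all genes called in either direction. Their part in the differences of MMPs and TIMPs was not tested.

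**Figure D4:**
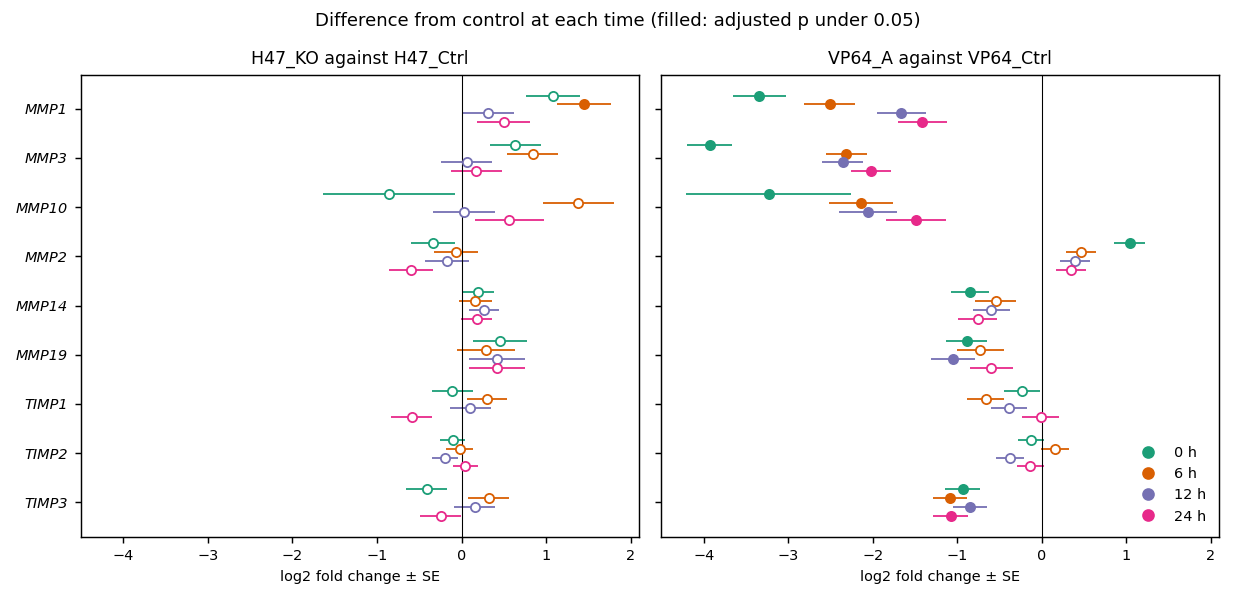
Log2 differences (bars are SE) of the 9 tested members between H47_KO and H47_Ctrl and between VP64_A and VP64_Ctrl at 0, 6, 12 and 24 h; filled points have an adjusted p under 0.05. In the CRISPRa arm MMP1, MMP3, MMP10 and TIMP3 are below 0 and filled at all 4 times, and in the CRISPRko arm MMP1 at 6 h (1.45) is the 1 filled point.

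Whether the response itself differed was tested as the difference between the change from 0 h in VP64_A and that in VP64_Ctrl. MMP3 rose by more in VP64_A, by 1.62 (SE 0.34, adjusted p = 0.0475) on the log2 scale at 6 h, 1.57 (SE 0.34, adjusted p = 0.032) at 12 h and 1.91 (SE 0.34, adjusted p = 0.00441) at 24 h, and MMP1 by 1.93 (SE 0.40, adjusted p = 0.0266) at 24 h. MMP1 at 12 h (1.68, SE 0.40) had an adjusted p of 0.0647. Counts of calls were 1, 1 and 2 of 9 members at 6, 12 and 24 h, against 0.0911%, 0.264% and 0.209% of all genes. MMP10, whose VP64_A level at 0 h rests on 1 count, gave 1.09 (SE 0.96), 1.18 (SE 0.96) and 1.75 (SE 1.03), and the sign turned with limma on log2(TPM + 1). These differences share all 0 h libraries with the comparisons of VP64_A and VP64_Ctrl at 0 h.

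The value for MMP3 at 24 h kept its call without each of the 12 libraries. The call for MMP3 at 6 h was kept only without VP64_A 6 h replicate 1 or VP64_Ctrl 0 h replicate 3 (1.45 to 1.80 over all 12), and that at 12 h only without VP64_A 12 h replicate 2, VP64_Ctrl 0 h replicate 3 or VP64_Ctrl 12 h replicate 3 (1.42 to 1.78). That for MMP1 at 24 h was kept only without VP64_Ctrl 0 h replicate 3 or VP64_Ctrl 24 h replicate 1 (1.73 to 2.21). In the fit of only the libraries compared, MMP3 at 24 h was the 1 call left, and with DESeq2's size factors MMP3 at 6 h was not called. The ratio of MMP1 to MMP3 in TPM fell from 12.2 ± 3.88 (SD, n = 3) at 0 h to 4.95 ± 0.0732 at 24 h in VP64_A and from 7.51 ± 1.29 to 3.24 ± 0.271 in VP64_Ctrl, while in H47_Ctrl it went from 2.15 ± 0.0552 to 1.52 ± 0.113 and in H47_KO from 2.92 ± 0.632 to 1.88 ± 0.0677.

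GLIS3 CRISPRko cells were compared with their control in the same way. MMP1 was higher at 6 h and in the average over the 4 times, and the other 8 members passed the test in none of these comparisons. At 0, 6, 12 and 24 h 0, 1, 0 and 0 of 9 members were called, where 0.301%, 0.319%, 0.0821% and 0.21% of all genes were called, and in the average 1 of 9, against 3.07%. At an unadjusted p under 0.05 edgeR gave 2, 3, 0 and 2 members at 0, 6, 12 and 24 h. Of all genes 11.4%, 11.2%, 7.68% and 10% passed it. In the average 5 of 9 members did, against 16.2% of all genes. DESeq2 called 3 values over the 4 times, and 1.02%, 1.54%, 0.383% and 0.338% of all genes at 0, 6, 12 and 24 h. Markers moved with these groups too: CD68 was higher in H47_KO on average (log2 0.68, SE 0.10, median 32.8 CPM against 22.1). PTPRC reached at most 1.41 CPM in any library, and KRT14 had a median of 0 CPM in both groups. On average 3 of 10 fibroblast markers were lower (COL3A1, COL6A1 and DCN), where 3.07% of all genes were called in either direction. Their part in the differences of members was not tested.

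MMP1 measured 845, 884 and 543 CPM in H47_KO at 0 h and 317, 383 and 374 in H47_Ctrl. At 6 h it measured 3119, 4023 and 3090.1 CPM in H47_KO and 697, 1456 and 1585 in H47_Ctrl. All H47_KO libraries were higher at both times, and those of 12 and 24 h overlapped the control (in TPM those of 24 h were all higher too). The log2 difference was 1.08 (SE 0.32, adjusted p = 0.128) at 0 h, 1.45 (SE 0.32, adjusted p = 0.0301) at 6 h, 0.31 (SE 0.31) at 12 h and 0.50 (SE 0.31) at 24 h, and 0.84 (SE 0.16, adjusted p = 0.00127) on average. The call at 6 h was lost without any 1 of the 6 libraries (1.16 to 1.66) and in the fit of only the libraries compared. The value at 0 h was called under 6 of 8 alternatives (adjusted p from 0.0124 to 0.15), and the average without each of the 24 libraries (0.73 to 0.90).

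MMP3 measured 209, 264 and 208 CPM in H47_KO at 0 h and 128, 153 and 157 in H47_Ctrl. The H47_KO libraries were higher there and at 6 h without overlap. Its log2 difference was 0.64 (SE 0.30) at 0 h, 0.84 (SE 0.30, adjusted p = 0.245, though called by DESeq2) at 6 h, 0.06 at 12 h, 0.18 at 24 h and 0.43 (SE 0.15, adjusted p = 0.12) on average. MMP10 gave −0.86 (SE 0.78) at 0 h from 6 counts against 10, and 1.38 (SE 0.42, adjusted p = 0.155) at 6 h, where all H47_KO libraries were higher in CPM but overlapped the control in TPM. Without the 3 libraries of flat composition, or without H47_KO 24 h replicate 3 alone, the averages of MMP3 and of MMP19 (0.40, SE 0.13) were called as well. The averages of the other members were −0.30 for MMP2, 0.20 for MMP14, −0.07 for TIMP1, −0.07 for TIMP2 and −0.04 for TIMP3, and that of MMP10 lay between 0.16 and 0.40 with single libraries left out. In TPM the H47_KO mean of MMP2 was 0.768, 0.713, 0.825 and 0.800 times that of H47_Ctrl at 0, 6, 12 and 24 h. On that scale its H47_KO libraries were all lower at 6 h and overlapped the control at the other times. In CPM they overlapped at 6 h too (471 to 596 against 522 to 586). The CPM means were 405, 523, 604 and 885 in H47_KO and 512, 548, 681 and 1345 in H47_Ctrl. With limma on log2(TPM + 1) the median of all genes moved by −0.32 at 6 h and 0.30 at 24 h. The difference of the response between H47_KO and H47_Ctrl was called for 0 of 9 members at 6, 12 and 24 h, against 0.00912%, 0% and 0% of all genes, by edgeR, and for 0 by DESeq2 and by limma as well. At an unadjusted p under 0.05 edgeR gave 2, 0 and 0, against 7.93%, 6.47% and 5.62% of all genes.

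The responses of the control groups H47_Ctrl and VP64_Ctrl were set against each other in 1 fit of all 48 libraries, in which everything that differed between the arms takes part. By edgeR 0 of 9 members were called at 6, 12 and 24 h, against 0.429%, 0.341% and 0.49% of all genes. At an unadjusted p under 0.05 there were 4, 1 and 1 members, against 13.6%, 10.9% and 7.83% of all genes. For MMP1 the difference of response was −0.87 (SE 0.43) at 6 h and 0.03 at 12 h. MMP3 gave −1.24 (SE 0.39, adjusted p = 0.127) at 6 h, which DESeq2 called (adjusted p = 0.0272).

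Of the 16 other MMPs and TIMP4, 4 were tested: MMP11, MMP12, MMP16 and MMP17. MMP12, the macrophage elastase, was higher in all 12 comparisons with 0 h. It was at 0 counts in all 6 CRISPRa libraries at 0 h and measured 27.2, 25.7 and 26.7 CPM in VP64_Ctrl and 13.1, 15.8 and 5.17 in VP64_A at 6 h, where it was lower in VP64_A (log2 −1.20, SE 0.29, adjusted p = 0.012). MMP16, a membrane-type MMP, fell at 24 h in H47_Ctrl (−1.67), H47_KO (−1.96) and VP64_Ctrl (−2.02), and MMP20, MMP21, MMP26 and MMP27 were at 0 in all libraries.

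A list of 13 genes of MMP activation and clearance also held inhibitors such as TFPI2 and RECK. Of these 13 genes 11 passed the filter among CRISPRko libraries and 10 among CRISPRa libraries. At 6 h 5 rose in each of the 4 groups, with 1 lower in H47_Ctrl, H47_KO and VP64_A and 2 lower in VP64_Ctrl. Of all genes 15.9%, 23.9%, 28.8% and 17.4% were called there in H47_Ctrl, H47_KO, VP64_Ctrl and VP64_A. PLAU, the urokinase that generates plasmin, rose at 6 h by 2.69 (SE 0.26), 3.14 (SE 0.26), 3.32 (SE 0.20) and 4.78 (SE 0.21) in H47_Ctrl, H47_KO, VP64_Ctrl and VP64_A. TFPI2, a matrix-bound serine protease inhibitor, rose by 3.33, 3.48, 3.06 and 3.98. From 6 to 24 h PLAU and its receptor PLAUR fell in all 4 groups (−1.58 and −2.10 in H47_Ctrl), unlike MMP1 and MMP3 in the same comparison. In VP64_A against VP64_Ctrl the averages over the 4 times called 3 of 10 higher and 2 lower, against 18.4% of all genes. Among them were TFPI2 (−1.20, SE 0.10) and RECK (1.04, SE 0.08), a membrane-anchored MMP inhibitor. In H47_KO against H47_Ctrl edgeR called 0 of 11 at any time or on average (3 on average at an unadjusted p under 0.05, as were 16.2% of all genes).

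Among 9 matrix proteins that MMPs cut, 7 were tested. In VP64_A at 0 h 4 were higher and 0 lower, led by COL1A1 (1.98, SE 0.35), COL4A1 (1.93, SE 0.24) and COL1A2 (1.54, SE 0.31), and on average 5 were higher and 1 lower. Of all genes 9.41% were called at 0 h and 18.4% on average. In H47_KO the proteoglycan gene DCN was lower at 0 h (−1.82, SE 0.23) and 6 h (−1.60, SE 0.26), and DCN (−1.30) and COL3A1 (−0.61) were lower on average. Of 7 subunits of AP-1, 4 passed the filter among CRISPRko libraries and 5 among CRISPRa libraries. JUNB rose in all 12 comparisons with 0 h, at 6 h by 2.35 in H47_Ctrl, 2.34 in H47_KO, 2.35 in VP64_Ctrl and 3.38 in VP64_A. FOSL1 rose at 6 h in all 4 groups, by 1.33, 1.28, 1.39 and 1.82. In VP64_A FOSL1 (−0.59, SE 0.19) and FOSL2 (−0.55, SE 0.15) were lower at 0 h, and JUNB was higher at 6 h (0.82, SE 0.18). In H47_KO edgeR called 0 of 4 against the control (1 at 6 h at an unadjusted p under 0.05, as were 11.2% of all genes).

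The likeness of patterns was described over the 16 condition means of log2 CPM, after removing the mean of each arm, among 10691 genes. The points share libraries and the cytokine time course, so these correlations carry no test. The gene most like MMP1 was MMP3 (Pearson r = 0.984), its neighbour on chromosome 11, and MMP10 had r = 0.944 with MMP1 and 0.940 with MMP3. MMP1 was followed by GPR176 and FCRLA, MMP3 by FAM214B and CTSS, and MMP10 was most like LOC100132891 (0.965), APBB2 and SIRPA. MMP14 was most like PRRX1 (0.969) and then TIMP3 (0.968) and LPXN, and TIMP3 was most like MMP14, HDGFRP3 and VEPH1. MMP2 was nearest to FAP (0.940), ITGB3 and PTTG1IP, and its r with MMP1 was 0.37. The nearest genes to TIMP1 were YIPF5 (0.966), FTH1P3 and FKBP1A, and those of MMP19 were CTSK (0.901), SPP1 and CPED1. TIMP2 had the weakest likeness of the 9, with APOBEC3G (0.857), GTSE1 and METTL4, and its r with MMP1 was 0.07.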

How the data were processed

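The authors purified mRNA from total RNA, prepared Nextera XT libraries, trimmed reads with Trim Galore, removed ribosomal reads with SortMeRNA, mapped them with STAR (GRCh38) and ran Salmon over 29744 genes (versions not given in the sources used here). They deposited estimated counts, not normalized between libraries, and TPM, scaled for transcript length to a common total. Of the estimated counts 6.38% were not whole, and these were rounded. Each arm (24 libraries, 8 groups) was fitted with edgeR 4.0.16 in R 4.3.3 (TMM, filterByExpr with minimum count 10 and total 15, quasi-likelihood F test, two-sided). Benjamini-Hochberg adjustment ran over the 10962 (CRISPRko), 10980 (CRISPRa) or 11422 (both) genes tested. Groups came from the sample descriptions and 0 columns were unmatched. All 10 members are named in every comparison, and of the other lists at most 3 called genes with the largest change. Members, lists and comparisons were chosen with earlier results of these data known. Alternatives were DESeq2 1.42.0, its size factors in edgeR, no filter, a replicate block, fits of only the libraries compared, log2(TPM + 1) or log2(TPM + 0.1) in limma 3.58.1, each library left out and, chosen after seeing the data, 3 libraries left out together. Counts were simulated with each gene at its mean over all 24 libraries of an arm, without an effect of time, and shifts were put into the 0 h comparison. There 100 genes shifted by log2 1 gave 44% calls for CRISPRko libraries and 60% for CRISPRa, those shifted by log2 2 gave 94% and 87%, and 4.83% and 8.13% of calls were false. These rates do not hold for members that lay far below that mean at 0 h, such as MMP10. Of 48 replicate pairs 0 were identical. Promoter windows came from RefSeq.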

Additional observations from a re-analysis of the deposited data

Results flagged for a closer look

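The response to TGFβ and IL-1β differed between VP64_A and VP64_Ctrl by the test of the difference itself (edgeR's quasi-likelihood test, 3 libraries per condition) for 2 members. MMP3 rose by 1.62 more on the log2 scale in VP64_A at 6 h, 1.57 more at 12 h and 1.91 more at 24 h, and MMP1 by 1.93 more at 24 h. The adjusted p-values were 0.0475, 0.032, 0.00441 and 0.0266. In each case VP64_A started lower at 0 h and was still lower at the later time. The 4 values share the 0 h libraries. Conditions held 3 libraries each, too few for the search for single libraries far from the rest.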

How the results depend on the processing

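A set of 155 fold changes of members was followed under 8 alternatives (1240 values). It held those called, the averages, and those of MMP1, MMP3 and MMP10 against control and in the differences of response within an arm. Not all of them are printed, and some printed values are outside it. Of the 1240 values 1174 kept direction and side of the threshold, 38 lost the call, 17 gained one and 11 turned sign. The number of H47_KO values called over the 4 times was 1, 3 with DESeq2, 2 without the filter, 2 with limma on log2(TPM + 1) and on log2(TPM + 0.1), 2 with 3 libraries left out, and 0 to 1 with single libraries left out. The averages called in H47_KO were 1, 2 without the filter, 3 with 3 libraries left out (MMP1, MMP3 and MMP19), and 1 to 3 with single libraries left out. Calls from 6 to 24 h were 11 over the 4 groups, and 20 with limma on either TPM scale. With limma calls among all genes in H47_KO went from 24.2% to 37.4% and 37.1%, and their median change was 0.53 and 0.67. In H47_Ctrl they went from 14.6% to 6.77% and 6.61%, and in VP64_Ctrl from 18.4% to 18% and 18.2%. In VP64_A they went from 12.5% to 6.17% on both scales. Differences of response called in the CRISPRa arm were 4, 1 in a fit of only the libraries compared, and 1 to 5 with single libraries left out. With 3 libraries left out they were 5, calls from 6 to 24 h were 13, and calls in the response of H47_Ctrl were 19 against 18. For the control groups DESeq2 called 1 where edgeR called 0. The causes were not tested.

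Signs turned for MMP3 in H47_KO at 12 h with limma (−0.0114 and −0.0113; −0.16 to 0.28 with libraries left out) and at 24 h (−0.20 to 0.45 with libraries left out), for MMP10 in H47_KO at 12 h (−0.0764 and −0.0852 with limma; −0.20 to 0.41 with libraries left out), for the H47_KO averages of TIMP1 (0.0354) and TIMP3 (0.0299) with 3 libraries left out (TIMP3 −0.0905 to 0.00512 with single libraries left out), for the H47_KO difference of response of MMP3 at 6 h (−0.013 and −0.0152 with limma; −0.12 to 0.46 with libraries left out), and for the VP64_A difference of MMP10 with limma on log2(TPM + 1) (−1.05, −1.21 and −0.99 at 6, 12 and 24 h). None of these was called. With limma the median of all genes moved by up to −0.81 on log2(TPM + 0.1).

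Same-numbered libraries of the groups of an arm did not pair: 4 of 24 correlations of their deviations passed 0.1 (−0.05 to 0.14). With a replicate block the calls were 1 in H47_KO and 21 in VP64_A over the 4 times (20 without it), 1 and 8 on average, 18, 19, 20 and 19 in the responses, 11 from 6 to 24 h, 0 and 3 for the differences of response (4 without it, MMP3 at 6 h being lost) and 0 for the controls. Depth limits MMP10 at 0 h and MMP13, with at most 10 and 9 counts in a library.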
